A study of Mus musculus with 24 samples.

Results

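The 8 livers of mice with severe acute pancreatitis (SAP) fell into 2 sets of 4, here called by their title numbers: SAP 21-25 (libraries SAP 21, 22, 24 and 25) and SAP 26-29 (libraries SAP 26, 27, 28 and 29). The sets were seen in the expression values themselves, over genes whose mean over the 24 libraries of the study reached 1 TPM (the share of transcripts, scaled by length, in 1000000), and the labels give no reason for them. Every difference between the sets is therefore given as a description, without a test. The 3 groups of the study are liver RNA-seq libraries of wild type Balb/c mice at 6 weeks of age, with 8 libraries each: healthy controls (Con), acute pancreatitis (AP) and SAP. No source used here gives the agent that induced pancreatitis, the time after it or the sex of the animals. The labels do not say whether each library is a separate animal, so p-values between groups measure the spread between these libraries only. The genes named as markers of the sets are Ifit3, Ifit2 and Igfbp1.

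Livers of SAP 21-25 held more transcript of interferon-stimulated genes, such as Mx1 (44.6 to 99.6 TPM against 0.98 to 2.83 TPM in SAP 26-29), and of several chemokines, such as Cxcl2 (55.2 to 227 TPM against 6.73 to 19.3 TPM). They also held more of several amino acid and drug-metabolising enzymes and of the iron hormone Hamp. Livers of SAP 26-29 held more transcript of cholesterol synthesis genes, such as Sqle (14.7 to 35.8 TPM against 2.78 to 4.88 TPM), of the lipase inhibitor G0s2 and of the bile acid receptor Nr1h4. The sets did not overlap for any of these named genes. The third marker, Igfbp1, overlapped through 1 liver, SAP 24.

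Ifit3 and Ifit2 belong to the interferon-stimulated genes. Type I interferons signal through the Ifnar1/Ifnar2 receptor, Jak kinases and a complex with Irf9 that binds the interferon-stimulated response element (ISRE), and interferon gamma signals through Ifngr1/Ifngr2. In the liver, hepatocytes, Kupffer cells and endothelium all respond to interferon. Igfbp1 encodes an IGF-binding protein that hepatocytes secrete. Its transcription is repressed by insulin through FoxO factors and is raised by fasting, glucocorticoids, hypoxia and inflammation. Pancreatitis reaches the liver through portal blood, cytokines and released enzymes, and the hepatic answer includes acute-phase secretion.

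Promoter letters were set beside the levels because the ISRE is the element that the complex with Irf9 binds. The stretches below come from RefSeq (GRCm38.p6), lie upstream of the annotated start, read 5′ to 3′ on the gene's strand, and carry the match in capitals. For the first 5 genes the capitals mark the ISRE letters, GAAA, any pair of bases and GAAA again, or their reverse complement, and in Irgm1 a pair of matches overlaps. For Igfbp1 they mark CAAAACAA, letters of an insulin response element, and for Hmgcs1 TCACCCCAC, a sterol regulatory element core. These last 2 motifs were added after the values were seen.
Ifit3, chr19:34583333-34583456, plus strand: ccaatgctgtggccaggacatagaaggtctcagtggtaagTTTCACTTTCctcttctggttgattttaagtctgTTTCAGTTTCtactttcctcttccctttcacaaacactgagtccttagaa
Rsad2, chr12:26456523-26456612, minus strand: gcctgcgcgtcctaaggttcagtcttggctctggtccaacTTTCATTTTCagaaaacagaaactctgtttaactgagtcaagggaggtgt
Cxcl10, chr5:92349053-92349139, minus strand: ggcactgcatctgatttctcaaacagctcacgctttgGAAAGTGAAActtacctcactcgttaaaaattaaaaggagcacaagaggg
Gbp2b, chr3:142594670-142594759, plus strand: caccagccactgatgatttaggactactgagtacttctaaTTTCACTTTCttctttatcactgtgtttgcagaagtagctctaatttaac
Irgm1, chr11:48871421-48871490, minus strand: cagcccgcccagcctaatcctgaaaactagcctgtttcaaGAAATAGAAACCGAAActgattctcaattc
Igfbp1, chr11:7197639-7197726, plus strand: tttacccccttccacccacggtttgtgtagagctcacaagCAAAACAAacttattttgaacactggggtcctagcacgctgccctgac
Hmgcs1, chr13:119690174-119690262, plus strand: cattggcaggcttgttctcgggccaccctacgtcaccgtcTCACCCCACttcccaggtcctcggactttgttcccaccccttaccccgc

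Windows from 250 bases before to 50 bases after a start were searched on both strands. The ISRE letters stood in the windows of 15 of 37 interferon-stimulated genes that had one (40.5%), against 3.99% of all 27025 genes with a window. All 10 interferon-gamma-inducible GTPase genes with a window held them, as did 4 of 17 antigen presentation genes. Among cytokine and chemokine genes the count was 0 of 18, although Cxcl10, which is listed with the interferon-stimulated genes, holds 1 match. The windows of Ifit2 and Cmpk2 do not hold these letters. Also searched were the gamma-activated site, cAMP response element, heat-shock element, E-box, D-box and NF-kB sites 1 and 2. NF-kB site 2 stood in 3 of 18 cytokine and chemokine genes (against 0.107% of all genes) and NF-kB site 1 in 1 (0.174%). The gamma-activated site stood in 6 of 10 GTPase, 8 of 37 interferon-stimulated, 4 of 18 cytokine and 1 of 17 antigen presentation genes. Its share of all genes with a window was 9.55%. CAAAACAA stood in 2.88% of all genes with a window and TCACCCCAC in 0.614%. A match is a description of letters and does not show binding. Of the 137 genes named by rule, 106 had a window.

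The first principal component within SAP, on log2(TPM + 1), held 45.0% of the variance and placed SAP 21-25 at -40.9 to -19.3 and SAP 26-29 at 23.3 to 41.8. Over all 24 libraries the first component (61.0%) set SAP apart from Con and AP, and the second (7.48%) ran from -36.2 to -15.7 in SAP 21-25 and from 13.7 to 32.4 in SAP 26-29, with controls at -33.9 to 16.1. Pearson's r across genes was 0.924 to 0.954 between libraries of different sets and 0.954 to 0.974 within a set. SAP 26-29 had more genes above 0 TPM (18180 to 18565 against 17140 to 17385) and a higher library median (2.79 to 3.09 against 2.47 to 2.77 on the log2 scale). Mitochondrial transcripts took 3.76% to 6.21% of TPM in SAP 21-25 and 2.78% to 5.18% in SAP 26-29, which overlap. Read depth is unknown, since TPM keeps no counts, and the part of depth or RNA quality in the sets was not tested.

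**Figure D1:**
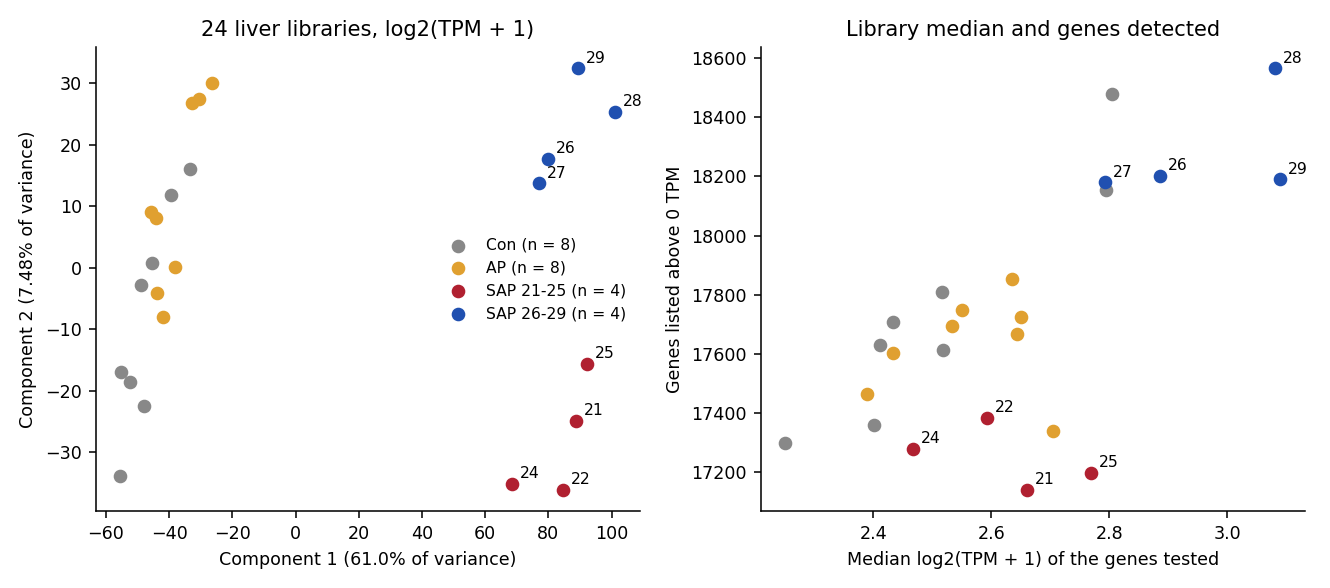
Left, the 24 livers on the first and second principal components of log2(TPM + 1); right, each library's median log2(TPM + 1) over the genes tested (x) and its number of genes listed above 0 TPM (y), with SAP libraries marked by title number. Both SAP sets lie far right on component 1 and apart on component 2, and the 4 libraries of SAP 26-29 each have at least 18180 genes above 0, more than any of SAP 21-25.

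Of 10555 genes tested, 3013 (28.5%) were higher in all 4 livers of SAP 26-29 than in all 4 of SAP 21-25, 511 (4.84%) were lower in all 4, and 7031 overlapped. These shares are the background for every count of members below, and since the sets were chosen on the same values nothing is read from a share itself. The median gene was 0.33 log2 higher in SAP 26-29, so values are also given relative to each library's median (centred). Centring left 1154 genes higher (10.9%) and 1592 lower (15.1%), and the share of higher calls went from 85.5% to 42.0%. Because every library median was higher in SAP 26-29, centring can only add lower calls and remove higher ones, here and in the lists below. With set medians at least 1 log2 apart, 518 genes were higher (4.91%) and 187 lower (1.77%). In 5 bins of transcript length the median difference was 0.21, 0.35, 0.37, 0.36 and 0.36 from short to long, and in 5 bins of GC content it was 0.40, 0.37, 0.33, 0.30 and 0.28 from low to high. Just inside the mean filter stood Pde7b, at 0.15 to 0.79 TPM over the SAP livers, and just outside it Gm30918, at 0.11 to 1.33 TPM. Differences below are SAP 26-29 minus SAP 21-25, taken between set medians of log2(TPM + 1), which understates the fold of low genes. Values of single livers are in TPM, which is a level per transcript length, in the order SAP 21, 22, 24, 25 and then SAP 26, 27, 28, 29.

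Distance from the controls overlapped between the sets: the median absolute log2 distance from the control mean was 0.71 to 0.85 in SAP 21-25 and 0.78 to 0.97 in SAP 26-29. Of the 511 genes lower in SAP 26-29, 100 were above every control in both sets, 82 were above every control only in SAP 21-25, 83 were below every control only in SAP 26-29 and 135 were below in both. Of the 3013 higher genes, 727 were below every control in SAP 21-25 and within the control range in SAP 26-29, and 736 were within it in SAP 21-25 and above it in SAP 26-29.

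**Figure D2:**
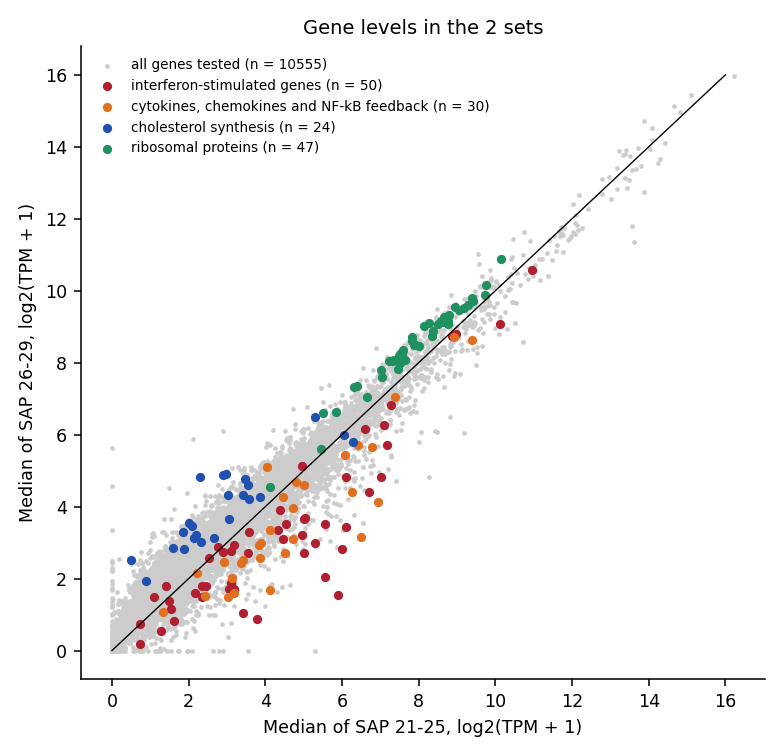
Each point is a gene; x, its median level in SAP 21-25, and y, its median level in SAP 26-29, both on log2(TPM + 1), with the line of equality. Most interferon-stimulated genes (median difference -0.83) and cytokine genes (-0.88) lie below the line, while cholesterol synthesis genes (1.03) lie above it.

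Of the interferon genes, 3 were looked at, and all were at or near 0 in both sets. Ifnb1 and Ifna4 were listed at 0 in all 24 libraries. Ifng, interferon gamma, was at 0.08, 0.33, 0.31 and 0.12 TPM in SAP 21-25 and 0.04, 0, 0.09 and 0.04 TPM in SAP 26-29. None of the 3 passed the mean filter, so no difference is drawn from them. The receptors overlapped between the sets: Ifnar2, a type I receptor chain, was at 45.2, 41.9, 40.1 and 44.9 TPM in SAP 21-25 and 44.8, 43.9, 47.3 and 46.1 TPM in SAP 26-29. Of 24 signalling genes tested, 6 were lower in SAP 26-29 without overlap and 4 were higher (2 higher and 12 lower after centring).

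Irf1, an interferon-gamma-induced factor, was at 18.3, 16.4, 14.2 and 11.1 TPM in SAP 21-25 and 4.68, 4.03, 8.22 and 7.45 TPM in SAP 26-29. Its difference was -1.23, with SAP 26-29 below every control (8.40 to 23 TPM, median 13.5). Usp18, a negative regulator of the type I receptor that interferon itself induces, was at 102, 73.2, 94.9 and 86.2 TPM in SAP 21-25 and 30.1, 17.0, 23.7 and 37.7 TPM in SAP 26-29, a difference of -1.72. Both sets overlapped the control range for Usp18 (17.3 to 92.1 TPM, median 54.3).

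Mavs and Irf3 went the other way. Mavs, the mitochondrial adaptor of cytosolic RNA sensors, was at 1.11, 0.60, 0.73 and 1.49 TPM in SAP 21-25 and 4.96, 2.56, 3.89 and 7.22 TPM in SAP 26-29, a difference of 1.5, and 1.08 after centring. SAP 21-25 lay below every control (2.92 to 8.10 TPM, median 4.17), and SAP 26-29 overlapped them. Irf3, the factor that Mavs signalling activates, was at 3.22, 3.44, 4.39 and 3.08 TPM in SAP 21-25 and 7.95, 7.81, 7.18 and 11.9 TPM in SAP 26-29. For Irf3 both sets lay far below the controls, at 33.2 to 60.8 TPM (median 52.5). Irf2, Tyk2, Mavs and Irf3 were the 4 higher members.

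Among interferon-stimulated genes, 0 of 50 tested were higher in SAP 26-29 and 32 were lower without overlap (37 after centring), with a median difference of -0.83 (-1.13 centred). Mx1, an antiviral GTPase, had the lowest difference of all genes named by rule. It was at 60.5, 44.6, 55.7 and 99.6 TPM in SAP 21-25 and 0.98, 1.61, 2.24 and 2.83 TPM in SAP 26-29, a 20.3-fold difference on the log2(TPM + 1) scale. Controls held 0.83 to 22.6 TPM (median 7.91), so the livers of SAP 21-25 were above all controls and those of SAP 26-29 lay at the low end of the control range.

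Rsad2 (viperin), which blocks viral replication, was at 51.9, 40.7, 29.5 and 61.8 TPM in SAP 21-25 and 1.32, 2.39, 3.99 and 5.22 TPM in SAP 26-29. Cmpk2, its genomic neighbour and a mitochondrial nucleotide kinase, was at 12.5, 16.9, 10.8 and 12.8 TPM in SAP 21-25 and 0.46, 0.53, 2.04 and 1.16 TPM in SAP 26-29. Ifit2, an RNA-binding antiviral protein and 1 of the marker genes, was at 10.2, 8.07, 9.83 and 9.51 TPM in SAP 21-25 and 0.60, 0.98, 1.36 and 1.17 TPM in SAP 26-29. In these 3 genes the lowest liver of SAP 21-25 exceeded the highest of SAP 26-29, and the differences were -3.51, -2.91 and -2.36.

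Ifit3, the first marker gene, was at 63.0, 75.7, 71.9 and 60.5 TPM in SAP 21-25 and 8.18, 6.94, 13.1 and 11.5 TPM in SAP 26-29, a difference of -2.67 (-3.07 centred). Controls spread over 11.0 to 297 TPM (median 144), so for Ifit3 the high SAP set lay inside the control range and the low set at its bottom. Of the transcript's 50-base windows, 51.2% are shared with the copy Ifit3b, so reads could have been split between the copies and the level is uncertain. Cxcl10, an interferon-induced chemokine whose gene overlaps Art3 on the other strand, was at 66.6, 73.5, 59.3 and 50.1 TPM in SAP 21-25 and 5.64, 2.88, 12.0 and 6.63 TPM in SAP 26-29. Controls were at 1.03 to 17.0 TPM (median 8.24), below every liver of SAP 21-25.

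Calhm6, a channel protein of activated macrophages, was at 14.3, 15.3, 16.1 and 9.15 TPM in SAP 21-25 and 2.02, 0.80, 1.11 and 1.61 TPM in SAP 26-29, a difference of -2.75. Across the 50 genes, 11 were above every control in SAP 21-25 while overlapping controls in SAP 26-29, 9 overlapped controls in SAP 21-25 while below them in SAP 26-29, and 25 overlapped in both sets. Over all genes tested the shares in these 3 positions were 2.94%, 2.01% and 34.2%. The plot of levels by liver shows both kinds.

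**Figure D3:**
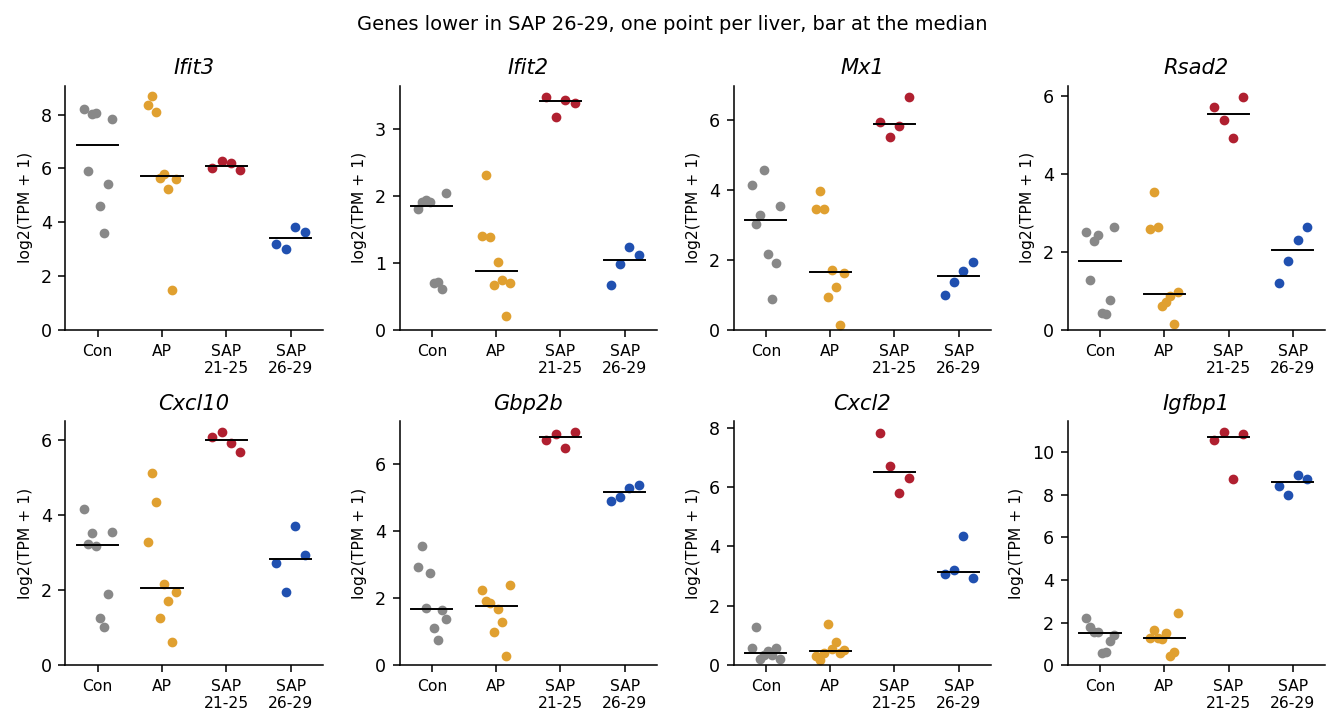
Levels on log2(TPM + 1) of 8 genes in each liver, by group and set, with a bar at the median. The points of SAP 21-25 (red) lie above those of SAP 26-29 (blue) for 7 genes, while for Igfbp1 SAP 24 falls among SAP 26-29.

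The interferon-gamma-inducible GTPases, which attack intracellular microbes, gave 7 of 15 lower and 0 higher, with a median difference of -0.88 (11 lower after centring). Gbp2b was at 104, 118, 88.1 and 121 TPM in SAP 21-25 and 28.7, 31.5, 37.5 and 39.8 TPM in SAP 26-29. Controls were at 0.70 to 10.7 TPM (median 2.20), below all 8 SAP livers, and Gbp2b rose in SAP against controls by 3.97 ± 0.40 (SE) log2 (limma adjusted p = 2.70e-09). Irgm1 was at 73.8, 47.0, 61.0 and 78.2 TPM in SAP 21-25 and 25.0, 24.8, 25.1 and 44.9 TPM in SAP 26-29, and SAP 29 stood apart within its set. Tgtp1, which shares sequence with its copy Tgtp2 and is uncertain, was at 24.0, 20.7, 13.7 and 15.9 TPM in SAP 21-25 and 4.11, 3.17, 5.67 and 6.94 TPM in SAP 26-29.

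Antigen presentation gave 6 of 20 lower and 0 higher (19 lower after centring). Tap1, the peptide transporter of class I presentation, was at 44.4, 45.5, 30.4 and 30.7 TPM in SAP 21-25 and 10.0, 5.27, 13.0 and 15.3 TPM in SAP 26-29. SAP 21-25 lay above every control (5.69 to 27.6 TPM, median 13.1), and SAP 26-29 overlapped them. Psmb9, an immunoproteasome subunit encoded beside Tap1, was at 45.9, 51.2, 47.2 and 47.1 TPM in SAP 21-25 and 24.8, 12.7, 18.7 and 15.1 TPM in SAP 26-29. Controls held more Psmb9 than SAP 26-29, at 45.3 to 211 TPM (median 82.8). Tap1 and Psmb9 overlap other annotated genes, so their levels are uncertain.

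Several chemokines were also lower in SAP 26-29. Of 30 genes of the list of cytokines, chemokines and NF-kB inhibitors, 15 were lower and 1, Cxcl13, was higher (21 and 0 after centring), with a median difference of -0.88. Both sets were above every control in 21 of the 30, against 23.2% of all genes tested. In the labelled comparison 28 of the 30 rose in SAP against controls, 1 fell and 1 did not pass (limma, adjusted over all genes). Among all genes tested 44.2% rose and 29.8% fell. Cxcl2, a neutrophil chemokine, was at 227, 102, 55.2 and 78.3 TPM in SAP 21-25 and 7.47, 8.25, 19.3 and 6.73 TPM in SAP 26-29, against 0.16 to 1.44 TPM (median 0.34) in controls. Its sets differed by -3.35, while SAP against controls was 4.52 ± 0.52 (SE) log2 (limma adjusted p = 2.56e-08).

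Ccl2, the main monocyte chemokine, was at 187, 149.5, 92.2 and 99.3 TPM in SAP 21-25 and 10.0, 5.93, 26.3 and 27.7 TPM in SAP 26-29. Controls held 0.30 to 8.05 TPM (median 1.75), and SAP 27 fell among them. Ccl4, a chemokine of macrophages, was at 19.1, 16.6, 16.3 and 10.6 TPM in SAP 21-25 and 2.21, 1.37, 3.22 and 2.24 TPM in SAP 26-29. Its difference was -2.43, and SAP 26-29 overlapped controls (0.24 to 3.32 TPM, median 1.43). The sums of 14 neutrophil markers overlapped between the sets. They came to 129 to 264 TPM in SAP 21-25 and 153 to 363 TPM in SAP 26-29, against 2.92 to 30.5 TPM in controls. S100a9, an abundant neutrophil protein, was at 126, 176, 95.4 and 139 TPM in SAP 21-25 and 92.7, 228, 119 and 99.9 TPM in SAP 26-29.

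Stress-induced genes followed. Rnd1, a small GTP-binding protein that loosens the actin skeleton, was at 69.5, 131, 47.6 and 46.8 TPM in SAP 21-25 and 6.77, 4.42, 11.8 and 5.96 TPM in SAP 26-29, a difference of -2.99. Ralgds, an exchange factor for Ral GTPases, was at 30.7, 28.1, 8.54 and 20.5 TPM in SAP 21-25 and 3.17, 1.94, 4.71 and 1.61 TPM in SAP 26-29, a difference of -2.84. Trp53inp1, a p53 target, was at 74.8, 103, 23.1 and 54.6 TPM in SAP 21-25 and 4.16, 8.49, 12.2 and 10.0 TPM in SAP 26-29, a difference of -2.67. In these 3 genes all 8 SAP livers were above all controls, and the sets kept apart.

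Cdkn1a (p21), the cell cycle inhibitor and p53 target, was at 141, 155, 84.9 and 139 TPM in SAP 21-25 and 62.8, 54.1, 81.1 and 84.7 TPM in SAP 26-29. SAP 24 and SAP 29 nearly met, and the difference was -0.96, beside a rise of 5.24 ± 0.28 (SE) log2 in SAP against controls (limma adjusted p = 2.60e-14). Atf3, a stress-induced repressor, was at 15.8, 20.1, 4.49 and 11.4 TPM in SAP 21-25 and 1.55, 2.31, 3.88 and 2.16 TPM in SAP 26-29, and Btg2, an antiproliferative early gene, at 40.2, 43.1, 9.32 and 47.8 TPM in SAP 21-25 and 6.04, 6.74, 13.9 and 8.33 TPM in SAP 26-29. Btg2 overlapped through SAP 24. Of 17 immediate-early genes tested, 4 were lower and 0 higher (12 lower after centring), and 16 rose in SAP against controls. SAP 24 had the lowest value of its set in 12 of the 17, against 42.2% of all genes tested.

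Nfil3, a repressor of clock output genes, was at 92.5, 130.0, 34.2 and 82.3 TPM in SAP 21-25 and 11.9, 20.8, 24.5 and 25.6 TPM in SAP 26-29. Adm (adrenomedullin), a vasodilator peptide that hypoxia induces, was at 24.6, 26.4, 20.6 and 12.8 TPM in SAP 21-25 and 3.64, 5.00, 7.84 and 5.44 TPM in SAP 26-29. Nfil3 and Adm separated the sets, and both rose in SAP against controls (limma, adjusted p at 0.05).

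Igfbp1, the third marker gene, was at 1535, 1939, 422 and 1851 TPM in SAP 21-25 and 341, 256, 488 and 429 TPM in SAP 26-29. The sets overlapped, because SAP 24 stood below SAP 28 and SAP 29, so in TPM Igfbp1 was high in 3 of the 4 livers of SAP 21-25 and did not mark the set as a whole. After centring the sets did not overlap (-2.41, against -2.14 before). Controls were at 0.48 to 3.62 TPM (median 1.83), and Igfbp1 rose in SAP against controls by 8.04 ± 0.39 (SE) log2 (limma adjusted p = 3.17e-15). The value was 7.16 with SAP 26-29 alone and 8.91 with SAP 21-25 alone, for which no p is given, since the sets were chosen on these values.

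Counts in the insulin and fasting list, which holds Igfbp1, depended on the scaling. Of 33 tested, 3 were lower and 4 higher (12 and 0 after centring), with a median difference of -0.21, and 23 rose and 7 fell in SAP against controls. The 4 higher members were Insr (the insulin receptor), Pdk4, Tsc22d3 and Fkbp5. Among all genes tested 28.5% were higher, and after centring 0 members of this list were. Sds, serine dehydratase, which feeds serine into gluconeogenesis, was at 278, 322, 418 and 394 TPM in SAP 21-25 and 90.1, 45.8, 81.7 and 53 TPM in SAP 26-29. Its difference was -2.42, with SAP 21-25 above every control (80.6 to 173 TPM, median 116) and SAP 26-29 overlapping them. Gadd45b, an inflammation and stress gene, was at 17.2, 23.5, 12.3 and 14.5 TPM in SAP 21-25 and 6.05, 3.16, 4.50 and 2.67 TPM in SAP 26-29.

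Several abundant hepatocyte products were lower in SAP 26-29. Hamp, hepcidin, the hormone that limits iron export, was at 11876, 13057, 13106 and 10471 TPM in SAP 21-25 and 3699.7, 2492, 2746 and 2335 TPM in SAP 26-29. Controls spread over 769 to 15056 TPM (median 4630.4), which covers both sets, and Hamp did not pass in SAP against controls (0.38 ± 0.49 (SE) log2, limma adjusted p = 0.49). Selenbp2, a liver selenium-binding protein that shares sequence with Selenbp1, was at 272, 103, 375 and 350.0 TPM in SAP 21-25 and 66.5, 18.1, 17.2 and 40.3 TPM in SAP 26-29, a difference of -3.46. Apol11b, of the apolipoprotein L family, was at 18.2, 23.7, 44.5 and 8.28 TPM in SAP 21-25 and 2.85, 3.57, 0 and 2.0 TPM in SAP 26-29, where the entry of 0 is a listed value without a known depth. Both sets lay below every control for Apol11b (327 to 792 TPM, median 617).

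Drug-metabolising enzymes gave 16 of 31 lower and 0 higher, with a median difference of -0.85 (23 lower after centring). Cyp2a5, which shares sequence with Cyp2a4, was at 34.4, 44.1, 29.8 and 21.5 TPM in SAP 21-25 and 8.82, 5.24, 9.72 and 4.93 TPM in SAP 26-29, against 179 to 394 TPM (median 258) in controls. Cyp2b10, a target of the receptor CAR, was at 10.4, 15.1, 9.75 and 11.1 TPM in SAP 21-25 and 2.79, 1.67, 2.11 and 1.86 TPM in SAP 26-29. It was above every control in both sets (0.06 to 0.69 TPM, median 0.46), so members of this list were lower in SAP 26-29 from opposite sides of the controls. Cyp2c29 was at 163, 122, 73.1 and 128 TPM in SAP 21-25 and 30.3, 9.59, 34.5 and 30.4 TPM in SAP 26-29, with SAP 27 apart in its set. Gstm1, a glutathione transferase, was at 501, 475, 619 and 438 TPM in SAP 21-25 and 248, 169, 283 and 176 TPM in SAP 26-29.

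Amino acid catabolism and the urea cycle gave 13 of 29 lower and 3 higher (17 and 0 after centring), with a median difference of -0.52. Cth, which makes cysteine from cystathionine, was at 18.0, 32.7, 24.8 and 18.1 TPM in SAP 21-25 and 4.33, 6.43, 4.86 and 4.46 TPM in SAP 26-29. It was below every control in both sets, and the sets differed by -1.97. Cth fell in SAP against controls, with a change of -2.94 ± 0.32 (SE) log2 (limma adjusted p = 1.21e-08). Cps1, Ass1 and Asl, enzymes of the urea cycle, were among the 13.

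Cebpa, a factor that maintains hepatocyte gene expression, was at 66.8, 82.2, 40.9 and 68.7 TPM in SAP 21-25 and 32.1, 19.0, 38.0 and 32.9 TPM in SAP 26-29, a difference of -1.04. It was the only 1 of 17 hepatocyte identity factors lower without overlap, and 5 were higher, while after centring 3 were lower and 4 higher. Rbp4, the plasma retinol carrier, was at 2586, 2230.4, 2666 and 2675 TPM in SAP 21-25 and 1549.7, 1041, 1475 and 1253 TPM in SAP 26-29. Alb, albumin, overlapped between the sets, at 16235, 21390.2, 16305 and 17346 TPM in SAP 21-25 and 18235, 12449.7, 17028 and 14383 TPM in SAP 26-29. Of 10 hepatocyte markers, 5 were lower in SAP 26-29 and 0 higher (8 lower after centring), with a median difference of -0.56. Their mean on the log2(TPM + 1) scale was 10.1 to 10.2 in SAP 21-25 and 9.37 to 9.78 in SAP 26-29, without overlap, against 9.82 to 10.3 in controls. Their sums, in which the most abundant genes weigh most, overlapped at 43454 to 54154 TPM and 39834 to 51883 TPM. The part of hepatocyte content in these lower genes was not tested. In bulk liver, fewer cells of a type and less RNA per cell cannot be told apart.

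Bile acid genes split. Nr1h4 (FXR), the bile acid receptor of the nucleus, was at 11.3, 4.16, 7.49 and 8.17 TPM in SAP 21-25 and 35.3, 29.2, 29.6 and 55.4 TPM in SAP 26-29. SAP 21-25 lay below every control (33.5 to 56.0 TPM, median 43.6), 2 livers of SAP 26-29 lay within their range and 2 below it, and the difference was 1.92 (1.69 centred). Slc51b, a chain of the bile acid exporter on the basolateral membrane and a known FXR target, was at 22.1, 19.3, 20.9 and 11.9 TPM in SAP 21-25 and 6.33, 7.20, 4.30 and 2.80 TPM in SAP 26-29, lower where Nr1h4 was higher. Of the 19 genes, 3 were higher and 5 lower (2 and 10 after centring).

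Cholesterol synthesis genes were higher in SAP 26-29. Of 24 tested, 18 were higher and 0 lower, with 14 and 0 after centring, and the median difference was 1.03 (0.78 centred). Sqle, squalene epoxidase, was at 2.78, 3.81, 4.07 and 4.88 TPM in SAP 21-25 and 14.7, 35.8, 21.7 and 33.9 TPM in SAP 26-29. SAP 21-25 lay below every control (16.5 to 53.9 TPM, median 29.6) and SAP 26-29 overlapped them apart from SAP 26, which was below, a 5.7-fold difference. Hmgcs1, HMG-CoA synthase, which precedes the rate-limiting reductase, was at 7.24, 5.75, 4.66 and 7.06 TPM in SAP 21-25 and 13.8, 34.4, 23.7 and 36.8 TPM in SAP 26-29. Every liver but SAP 29 was below every control for Hmgcs1. Its promoter stretch is shown above with the sterol motif, and it was the only 1 of 16 cholesterol synthesis genes with a window that held those letters. Idi1, an isomerase of the mevalonate pathway, was at 0.48, 0.25, 0.35 and 0.86 TPM in SAP 21-25 and 1.74, 4.28, 5.23 and 9.54 TPM in SAP 26-29.

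In 11 of the 24 genes SAP 21-25 was below every control while SAP 26-29 overlapped controls, and in 6 both sets were below. The shares over all genes tested were 10.6% and 14.6%. In the labelled comparison 16 of the 24 fell in SAP against controls and 2 rose (limma, adjusted over all genes). Msmo1, Cyp51 and Fdft1, later enzymes of the pathway, and Srebf2, the sterol-sensing factor, were among the 18.

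**Figure D4:**
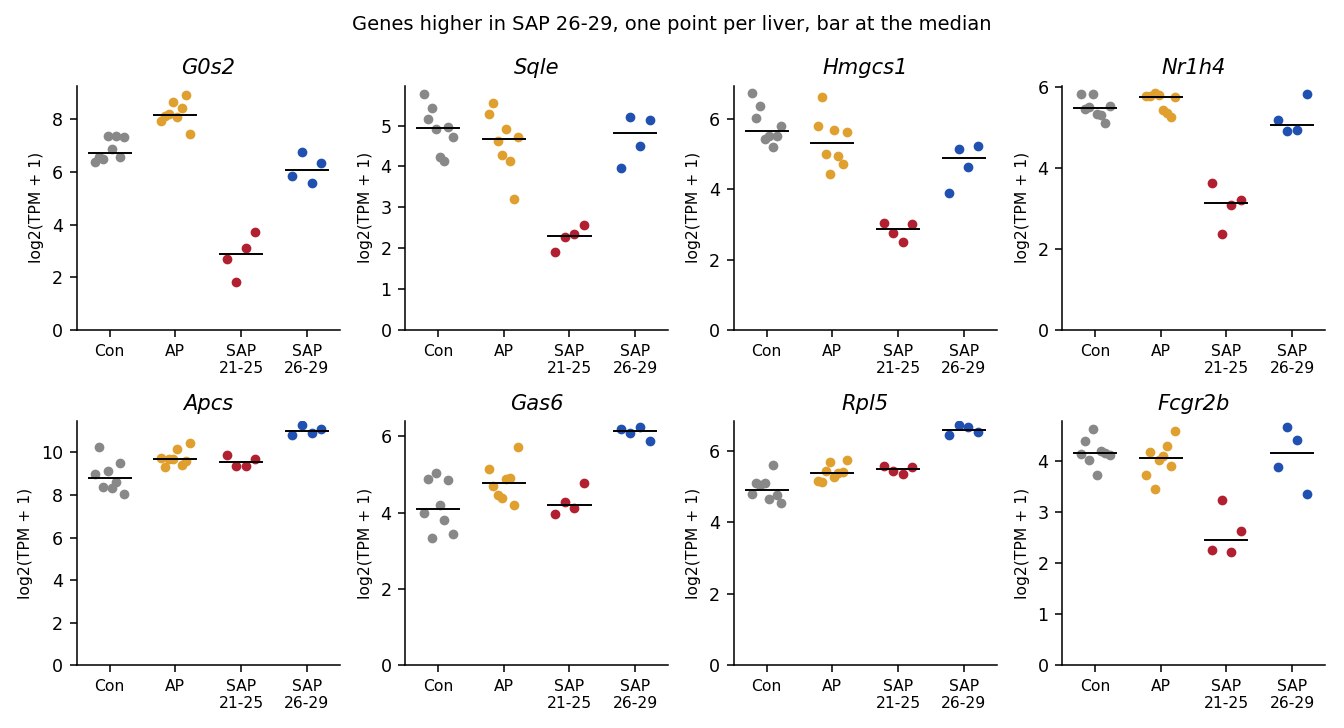
Levels on log2(TPM + 1) of 8 genes in each liver, by group and set, with a bar at the median. SAP 26-29 (blue) lies above SAP 21-25 (red) in each panel; for G0s2, Sqle, Hmgcs1 and Nr1h4 every liver of SAP 21-25 stands below the controls, as do 3 of the 4 livers of SAP 26-29 for G0s2 and Hmgcs1, 2 for Nr1h4 and 1 for Sqle.

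G0s2, an inhibitor of adipose triglyceride lipase, had the largest difference among the higher genes named by rule. It was at 5.41, 2.57, 7.71 and 12.1 TPM in SAP 21-25 and 56.0, 107, 47.3 and 81.2 TPM in SAP 26-29, a 9.16-fold difference. Controls held 82.3 to 166 TPM (median 107) and AP livers 174 to 484 TPM, so every liver of SAP 21-25 was below every control. In SAP 26-29 only SAP 27 reached the control range, and the other livers were below it. G0s2 fell in SAP against controls by 2.4 ± 0.53 (SE) log2 (limma adjusted p = 0.000233). Against controls it was -4.04 with SAP 21-25 alone and -0.75 with SAP 26-29 alone.

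Acute-phase proteins, which the liver secretes in inflammation, gave 8 of 31 higher and 2 lower (2 and 6 after centring), so their direction depends on the scaling. Among all genes tested 28.5% were higher and 4.84% lower. The examples that follow were higher in SAP 26-29, while Hamp, given above, was lower. Apcs, serum amyloid P, was at 939, 651, 660.1 and 835 TPM in SAP 21-25 and 1819, 2534, 1919 and 2211 TPM in SAP 26-29, a difference of 1.47 (1.06 centred). Fgl1, a secreted fibrinogen-like protein, was at 1661, 1789, 1577 and 1747 TPM in SAP 21-25 and 2656, 4741, 2995 and 3343 TPM in SAP 26-29, a difference of 0.89 (0.46 centred). In both genes SAP 21-25 overlapped controls and SAP 26-29 was above all of them. Serum amyloid A genes took 7.31% to 9.22% of all TPM in SAP 21-25 and 9.82% to 12.3% in SAP 26-29, against 0.0503% to 1.13% in controls. Reg3g, an antibacterial lectin, was at 4.38, 1.70, 7.36 and 1.75 TPM in SAP 21-25 and 28.3, 19.3, 9.84 and 20.2 TPM in SAP 26-29, against 0 to 1.11 TPM in controls.

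Gas6, a ligand of the receptors that clear dying cells, was at 14.5, 18.3, 16.4 and 26.4 TPM in SAP 21-25 and 72.5, 66.8, 75 and 57.6 TPM in SAP 26-29, a difference of 1.95. Controls were at 9.13 to 32 TPM (median 16.2), below all 4 livers of SAP 26-29. Tkfc, a kinase of fructose metabolism, was at 30.3, 14.9, 30.2 and 21.3 TPM in SAP 21-25 and 150.4, 59.2, 70.3 and 152 TPM in SAP 26-29. Glyctk, a glycerate kinase, was at 6.43, 3.33, 7.52 and 11.3 TPM in SAP 21-25 and 27.4, 20, 35.3 and 42.7 TPM in SAP 26-29. Tkfc was below every control in SAP 21-25, while Glyctk was above every control in SAP 26-29.

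Hdhd3, a haloacid dehalogenase-like protein, was at 1.42, 0.48, 2.53 and 3.10 TPM in SAP 21-25 and 12.2, 10.9, 10.2 and 17.7 TPM in SAP 26-29, all far below controls (45.7 to 106 TPM, median 80.1). Neat1, a long noncoding RNA of nuclear paraspeckles, was at 1.65, 1.48, 2.01 and 1.33 TPM in SAP 21-25 and 16.8, 8.06, 7.62 and 28.7 TPM in SAP 26-29. Ankhd1 was at 1.63, 0.79, 0.61 and 1.39 TPM in SAP 21-25 and 7.85, 8.05, 27.3 and 4.82 TPM in SAP 26-29, with both sets below all controls (31.4 to 73.7 TPM, median 57.9). Zfp970, a zinc finger gene that shares sequence with others, was at 1.20, 2.33, 1.07 and 1.09 TPM in SAP 21-25 and 3.74, 10.5, 6.12 and 21.4 TPM in SAP 26-29. Neat1, Ankhd1, Cyp2c29 and Clec1b overlap other annotated genes on the same strand, so their levels are uncertain however strand was used. Gas6, Tkfc, Glyctk, Irf1, Usp18, Cdkn1a, Sds, Slc51b, Cebpa, Hmgcs1, Idi1 and Fcgr2b overlap genes on the opposite strand, so their levels are uncertain where counting did not use strand.

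Ribosomal proteins gave 37 of 47 higher and 0 lower, but 9 higher and 1 lower after centring, so most of that count moved with the library medians. Rpl5 was at 46.4, 42.4, 39.8 and 46.0 TPM in SAP 21-25 and 86.0, 105, 100.4 and 91.1 TPM in SAP 26-29, and Rps7 at 76.0, 80.5, 67.0 and 108 TPM in SAP 21-25 and 159, 156, 172 and 157 TPM in SAP 26-29. Both were still higher after centring, by 0.71 and 0.71. Npm1, a nucleolar chaperone of ribosome assembly, was at 52.4, 51.9, 38.4 and 48.8 TPM in SAP 21-25 and 79.5, 119, 118 and 104 TPM in SAP 26-29. All 3 share sequence with other annotated copies, which makes their levels uncertain. In each of these 3 genes SAP 26-29 was above every control. Ribosome biogenesis genes gave 9 of 26 higher and 0 lower (4 and 0 after centring). The shares of all genes tested were 28.5% and 4.84% (10.9% and 15.1% after centring).

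Proteasome subunits gave 11 of 31 higher and 1 lower (1 and 1 after centring), while 24 rose in SAP against controls. Beside this, 28.5% of all genes tested were higher and 4.84% lower (10.9% and 15.1% after centring), and 44.2% rose. Nothing is read from the list's count between the sets. Psmc6, a subunit of the regulatory cap, was at 17.8, 16.7, 15.1 and 16.8 TPM in SAP 21-25 and 22.2, 47.6, 31.4 and 39.9 TPM in SAP 26-29. Psmb9, the interferon-induced subunit given above, was lower in SAP 26-29.

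**Figure D5:**
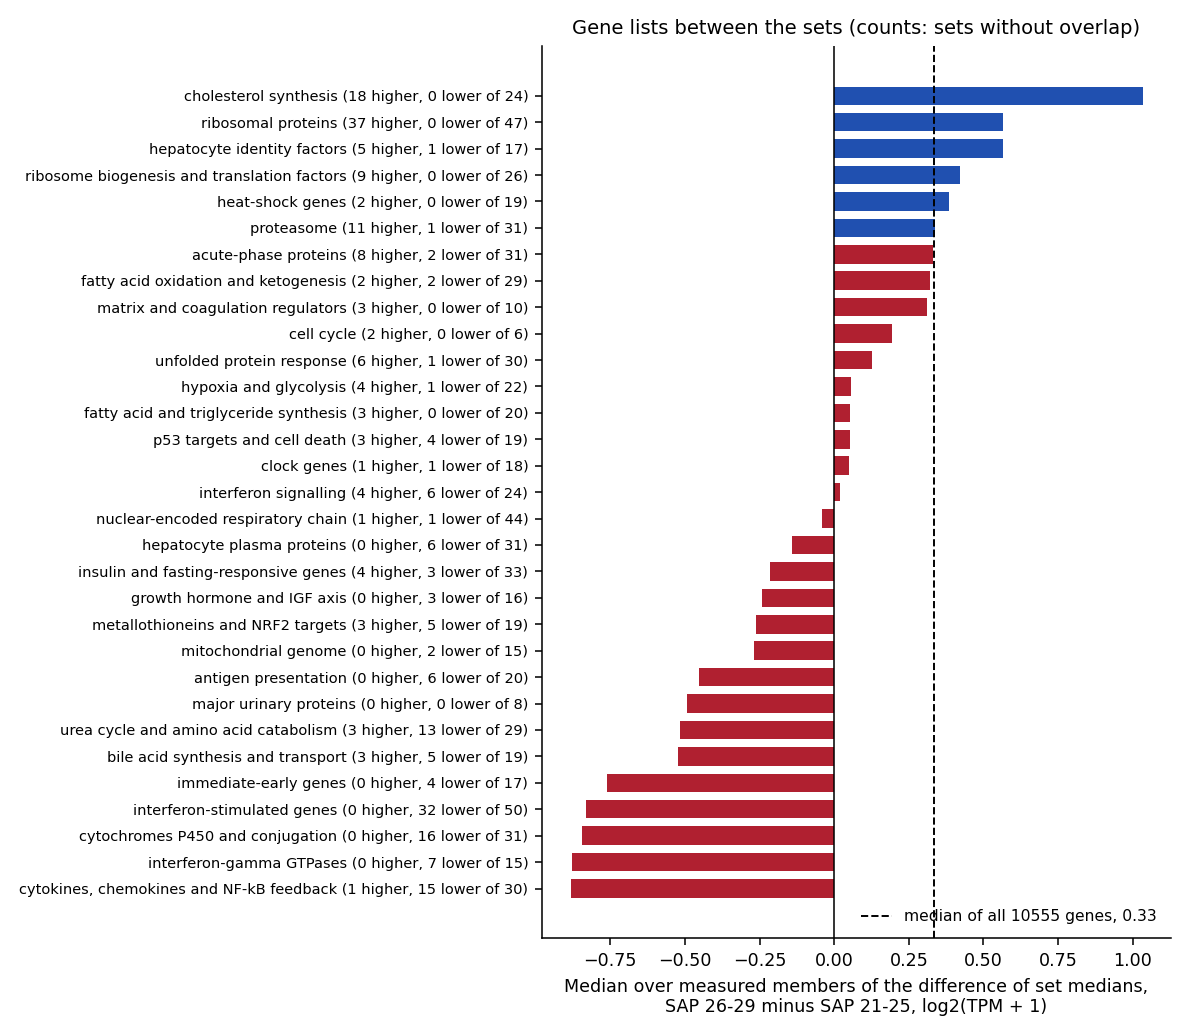
Bars give, for each pathway list, the median over its tested members of the difference of set medians, SAP 26-29 minus SAP 21-25, on log2(TPM + 1); the dashed line marks the median of all genes, 0.33, and labels give members higher and lower without overlap. Bars left of the dashed line (red) run from cytokines at -0.88 upwards, and cholesterol synthesis reaches 1.03.

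Markers of other liver cells were set beside these results. Sinusoidal endothelium markers summed to 31.6 to 58.5 TPM in SAP 21-25 and 67.2 to 95.7 TPM in SAP 26-29, with controls at 77.1 to 156 TPM, and 6 of 10 were higher and 1 lower (4 and 1 after centring). Fcgr2b, an endothelial Fc receptor of the sinusoid, was at 3.79, 8.42, 3.68 and 5.20 TPM in SAP 21-25 and 13.7, 24.3, 20.4 and 9.30 TPM in SAP 26-29. Lyve1, a hyaluronan receptor of the same cells, was at 5.84, 9.00, 3.53 and 9.69 TPM in SAP 21-25 and 12.2, 15.7, 18.7 and 14.7 TPM in SAP 26-29. Lyve1 was above every control in both sets (0.12 to 0.60 TPM, median 0.30), while Fcgr2b in SAP 21-25 was below every control (12.2 to 23.8 TPM, median 16.8). Clec1b, a lectin receptor named by the size of its difference and not as an endothelial marker, was at 1.01, 5.02, 1.76 and 2.38 TPM in SAP 21-25. In SAP 26-29 Clec1b was at 13.1, 28.4, 15.5 and 8.68 TPM.

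Stellate cell markers summed to 145 to 187 TPM in SAP 21-25 and 180.0 to 198 TPM in SAP 26-29, which overlap, and 3 of 7 were higher and 1 lower (0 and 1 after centring). Dcn, decorin, was at 60.1, 75.9, 48.0 and 74.5 TPM in SAP 21-25 and 79.2, 101, 107 and 96.2 TPM in SAP 26-29, and Sparc, a matrix-associated protein, at 12.7, 7.02, 12.4 and 12.7 TPM in SAP 21-25 and 22.9, 33.8, 33.4 and 20.8 TPM in SAP 26-29. Fabp4, a fatty acid-binding protein of fat cells, endothelium and macrophages, was at 36, 81.7, 40.9 and 60.3 TPM in SAP 21-25 and 144, 189.9, 338 and 93.5 TPM in SAP 26-29, all above controls (3.09 to 5.74 TPM, median 4.40). Of 5 fat cell markers 2 passed the mean filter, 1 higher in SAP 26-29 and 1 overlapping (0 higher after centring). Adipoq, Plin1 and Lep did not pass. The 5 summed to 145 to 233 TPM in SAP 21-25 and 300 to 557 TPM in SAP 26-29, without overlap, against 5.82 to 11.8 TPM in controls. Cd36, a fatty acid transporter, overlapped, at 4.87, 12.1, 5.01 and 10.3 TPM in SAP 21-25 and 11.6, 22.9, 31.0 and 20.3 TPM in SAP 26-29.

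Kupffer cell markers summed to 116 to 222 TPM and 104 to 142 TPM, which overlap, and 1 of 11 was lower (5 after centring). Clec4f, a lectin of Kupffer cells, was lower, at 32.1, 53.2, 47.0 and 37.6 TPM in SAP 21-25 and 20.2, 27.9, 14.7 and 30.8 TPM in SAP 26-29, and C1qa, a complement subunit of macrophages, overlapped, at 25.2, 48.8, 24.1 and 28.7 TPM in SAP 21-25 and 23.8, 31.8, 22.2 and 34.0 TPM in SAP 26-29. Of 6 markers of plasmacytoid dendritic cells, a main producer of type I interferon, Siglech, Ccr9, Tcf4 and Cox6a2 did not pass the filter. Bst2, which is itself interferon-stimulated in many cells, overlapped, at 604, 485, 464 and 517 TPM in SAP 21-25 and 463, 393, 422 and 648 TPM in SAP 26-29, and made up most of their sum. Irf8, a transcription factor of these and other myeloid cells, was lower, at 5.66, 5.72, 4.83 and 5.43 TPM in SAP 21-25 and 3.42, 2.42, 3.67 and 3.91 TPM in SAP 26-29. None of the 13 T and NK cell markers passed the filter, with sums of 3.41 to 4.46 TPM and 2.67 to 5.7 TPM. Of 14 exocrine pancreas markers only Cela1 passed, and Cpa1, Prss1 and Amy2b were listed at 0 in all SAP livers. The part of any of these cells in the sets was not tested.

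The labelled comparison was then run with each set alone, which asks how far SAP against controls rests on either. With all 8 SAP livers, 4661 genes (44.2%) rose and 3147 (29.8%) fell against controls (limma on log2(TPM + 1), Benjamini-Hochberg adjusted p at 0.05). With SAP 26-29 alone 5243 rose and 2542 fell, and with SAP 21-25 alone 3909 rose and 3649 fell. In both fits 6032 genes were called in the same direction and 157 in opposite directions. The median gene stood 0.40 log2 above controls with SAP 26-29 alone and 0.02 with SAP 21-25 alone, without centring. Both fits share the control livers, and since the sets were chosen on the same values these counts describe the dependence and do not test it. Against AP, 4332 genes (41.0%) rose and 3275 (31.0%) fell in SAP.

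Of the 50 interferon-stimulated genes, 10 rose and 16 fell with all 8 livers (limma). For single genes the values with each set alone are given without a p, since the sets were chosen on them. Ifit2 was not called with all 8 livers (0.73 ± 0.42 (SE) log2, limma adjusted p = 0.118). The log2 value was 1.92 with SAP 21-25 alone and -0.45 with SAP 26-29 alone. Mx1 likewise gave 0.80 ± 0.81 (SE) log2 (limma adjusted p = 0.376) with all 8, and 3.04 and -1.44 with SAP 21-25 and SAP 26-29 alone.

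For Ifit3 the log2 value against controls was -0.36 with SAP 21-25 alone and -3.04 with SAP 26-29 alone. The difference between these fits was not tested.

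The markers also varied among livers that took no part in choosing the sets. Ifit2 was at 2.50, 2.74, 2.84, 2.77 and 3.13 TPM in Con 1, 3, 5, 6 and 10 and at 0.62, 0.64 and 0.53 TPM in Con 7, 8 and 9. Ifit3 in the same livers was at 297, 58.2, 258, 262 and 229 TPM and at 23.6, 11.0 and 41.7 TPM. In AP, Ifit3 was at 324, 417 and 276 TPM in AP 11, 12 and 13, at 36.5 to 54.9 TPM in AP 15, 16, 17 and 19, and at 1.82 TPM in AP 18. Within each of these labelled groups the libraries thus fell into clusters of 5 or fewer on Ifit3 or Ifit2, so no correlation between the markers is given. The spread of Ifit3 among controls, from 11.0 to 297 TPM, was wider than that between the SAP sets, while the spread of Igfbp1 among controls was 0.48 to 3.62 TPM.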

How the data were processed

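Liver RNA was measured in 24 libraries (8 Con, 8 AP, 8 SAP). The authors deposited TPM values with 2 decimals for 55536 genes, a unit read from the values, whose columns sum to just under 1000000, since the headers name none. The submitters' processing notes name edgeR alone and give it no version. The aligner, the genome build and the annotation are each not given in the sources. Columns were matched to samples by title, and 0 columns stayed unmapped. From the TPM values log2(TPM + 1) was computed, with a pseudocount of 1 TPM, and the 10555 genes whose mean reached 1 TPM were tested (44981 left out). TPM is relative to a fixed total, so abundant transcripts lower the values of all others.

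The members, gene lists and sets were chosen with earlier results of these data known. Sets were described by overlap: a gene was higher or lower where all 4 values of one set lay beyond all 4 of the other. Labelled groups were compared with limma 3.58.1 in R 4.3.3 (all 24 libraries, trend, 2-sided, Benjamini-Hochberg adjusted p at 0.05), tested on simulated data first. Python 3.11.15 made the other values. Named genes were the 3 markers, the 12 genes with the largest and the 12 with the smallest difference of set medians among genes without overlap whose SAP mean reached 5 TPM (predicted and clone names left out), the 3 members of each pathway list with the largest difference, and the 2 most abundant members of each cell marker list. The text gives values for 72 of these 137 genes, and for interferon signalling genes outside the rule, chosen after their values were seen (Irf3, Ifng, Ifnb1, Ifna4 and Ifnar2). Some genes are not reported here. GENCODE M21 (GRCm38) transcripts gave lengths, GC content, overlaps and sequence shared over 50-base windows. A gene is called uncertain with at least 20% of windows shared or an overlapping gene. Marker correlations within Con and AP had been planned and are not given, because libraries fell into clusters of fewer than 6.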

Additional observations from a re-analysis of the deposited data

Results flagged for a closer look

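Of 308 groups of livers checked over the genes and library measures given, 21 held a library far from the others of its group, by the gap to the nearest value over the whole range, and chance alone gives such a gap in about 1 in 20 groups.

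Within SAP 21-25, SAP 24 stood apart for 2 genes. Igfbp1 was at 421.5 TPM there against 1535 to 1939 TPM in the other livers of the set, and Btg2 was at 9.32 TPM against 40.2 to 47.8 TPM. SAP 22 was high for Zfp970 (2.33 TPM against 1.07 to 1.20 TPM) and low for Sparc (7.02 TPM against 12.4 to 12.7 TPM). SAP 21 had 9.22% of TPM in serum amyloid A genes against 7.31% to 7.56% in the others.

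Within SAP 26-29, Irgm1 was at 44.9 TPM in SAP 29 against 24.8 to 25.1 TPM, and Cyp2c29 was at 9.59 TPM in SAP 27 against 30.3 to 34.5 TPM. SAP 28 had 18565 genes above 0 TPM against 18180 to 18203.

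In AP, AP 18 stood below the other livers for the interferon-responsive genes Usp18 (1.74 TPM against 25.9 to 132 TPM), Irf1 (5.68 TPM against 12.0 to 18.9 TPM), Irgm1 (10.6 TPM against 36.3 to 105 TPM), Tap1 (2.41 TPM against 10.1 to 23.4 TPM), Psmb9 (18.6 TPM against 69.5 to 158 TPM) and Bst2 (129 TPM against 567 to 1005 TPM), and for Apol11b (50.5 TPM against 238 to 746 TPM). Reg3g was at 0.07 TPM in AP 18 and listed at 0 in the other AP livers.

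In controls, Con 3 was high for Cxcl2 (1.44 TPM against 0.16 to 0.50 TPM), and Con 6 for Reg3g (1.11 TPM against 0 to 0.32 TPM). Con 8 was low for Apol11b (327 TPM against 537 to 792 TPM) and Gstm1 (1569 TPM against 2049.7 to 2534 TPM), and Con 10 for Tkfc (120.5 TPM against 158 to 198.9 TPM).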

How the results depend on the processing

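The split of genes between the sets depends on the scaling: 3013 higher and 511 lower became 1430 and 1151 (55.4% higher) under quantile normalization and 1154 and 1592 (42.0% higher) with each library centred on its median. Library medians were 2.79 to 3.09 in SAP 26-29 and 2.47 to 2.77 in SAP 21-25, without overlap. Centring can therefore neither undo a lower call nor make a new higher call. That all 511 lower genes stayed lower was fixed in advance and says nothing on stability, while 1154 of the 3013 higher genes stayed higher. Under rescaling without the 50 most abundant genes and under both other filters the counts stayed within 1.5 times. The filters change only which genes are counted. Pseudocounts of 0.1 and 0.01 cannot change whether the sets overlap, so the counts were 3013 and 511 again and say nothing on stability. Leaving out 1 SAP library at a time gave 3145 to 4039 higher and 551 to 723 lower genes. With fewer values to keep apart these counts cannot fall below 3013 and 511, so they do not show stability. The differences stayed negative throughout, at -2.90 to -2.45 for Ifit3, -2.43 to -2.30 for Ifit2 and -2.30 to -1.97 for Igfbp1 with 1 library left out. For Ifit3 and Ifit2, whose sets do not overlap, leaving out 1 library cannot change the sign. The sets were also chosen on these values, so the kept signs of the markers do not show stability. Ifit2 reached -3.16 with a pseudocount of 0.01. The counts of SAP against controls and against AP stayed within 1.5 times under all 9 alternatives each, but centring moved the share of risen genes among those called from 59.7% to 47.5% against controls and from 56.9% to 46.4% against AP. No paired analysis was possible because the groups share no replicate numbers. Read depth is unknown, so low values such as Ifng carry no counting interval.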

Other observations

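In 17 genes, found after the values were seen, all livers of SAP 21-25 lay below every control and all livers of SAP 26-29 above every control, which is 0.161% of the genes tested. Idh3a, a subunit of the mitochondrial isocitrate dehydrogenase, was at 3.38 to 4.29 TPM in SAP 21-25, 6.88 to 9.89 TPM in controls and 10.8 to 13.0 TPM in SAP 26-29. Abhd5, the coactivator of adipose triglyceride lipase, which G0s2 inhibits, was at 7.65 to 10.3 TPM, 10.4 to 15.3 TPM and 19.7 to 24.8 TPM in the same order. Pnpla7, a lysophospholipase, was at 17.5 to 33.4 TPM, 38.1 to 58.4 TPM and 61.1 to 90.0 TPM. Mrps27, a mitochondrial ribosomal protein, was at 5.44 to 6.85 TPM, 8.69 to 11.8 TPM and 12.1 to 15.0 TPM. For 0 genes did the order run the other way, with SAP 21-25 above and SAP 26-29 below every control. Both counts are from values that were not centred. On that scale the median gene was 0.33 log2 higher in SAP 26-29, which favours the first order, and the counts after centring were not taken.

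G0s2 and Abhd5, inhibitor and coactivator of the same lipase, were thus both higher in SAP 26-29. The unfolded protein response list gave 6 of 30 genes higher and 1 lower in SAP 26-29 (4 and 3 after centring), and 28 of the 30 rose in SAP against controls (limma). Over all genes tested 28.5% were higher and 4.84% lower (10.9% and 15.1% after centring), and 44.2% rose. Nothing is read from the list's count between the sets. Among the list's 6 higher members, Canx, Calr, Pdia3 and Pdia6 are chaperones of the endoplasmic reticulum, and the lower one was Ppp1r15a. Major urinary proteins, which male mice secrete in large amounts, overlapped in all 8 genes tested.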
